A study of Zea mays with 318 samples.

Results

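Genes for writing and erasing DNA methylation were followed in maize kernels at 5 days after pollination (DAP). The 9 genes were taken by identifier, from a list made with earlier results of these data known, and were 9 of the 39625 genes in the deposited tables. They were met1 (GRMZM2G333916), zmet2 (GRMZM2G025592), zmet5 (GRMZM2G005310), zmet3 (GRMZM2G092497), zmet7 (GRMZM2G137366), 2 ddm1 type genes called here ddm1-a (GRMZM2G177165) and ddm1-b (GRMZM2G071025), mop1 (GRMZM2G042443) and dng101 (GRMZM2G123587). All 9 were present in the files and all 9 passed the filter on low counts. Gene names here follow the list that fixed the 9 identifiers. In the RefSeq gene table, which is built on the later NAM-5.0 assembly of B73, 7 of the 9 identifiers had a match, and those of met1 and dng101 had none. That table gives GRMZM2G025592 the symbol met2, GRMZM2G177165 the synonym cha101 and GRMZM2G071025 the synonym chr101a, and it splits GRMZM2G092497 over 2 loci.

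In plants, methylation of cytosine is kept up by separate enzymes for separate sequence contexts. The enzyme MET1 copies CG methylation after replication, chromomethylases maintain CHG methylation together with histone H3 lysine 9 methylation, and domains rearranged methyltransferases act where small RNAs guide the RNA-directed pathway. DDM1 is a chromatin remodeler that gives methyltransferases access to packed heterochromatin, MOP1 is the maize RNA-dependent RNA polymerase that feeds the small RNA pathway, and DNA glycosylases of the DEMETER family cut methylated cytosine out. In the endosperm, loss of methylation by such glycosylases is known to contribute to imprinting.

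Whole kernels of 318 inbred lines of a maize association panel were profiled by RNA-seq, with 1 library per line made from mixed seeds of 3 field blocks. By the labels, all 318 lines stood in the same field design and were self-pollinated, and no treatment, mutation or transgene is named for any of them. The mapping table of the study does not list 36 of these lines. The labels give the line name only, and lines were therefore grouped by the prefix of that name: 98 CIMBL lines, 40 CML lines, 46 GEMS lines and the remaining lines with none of these prefixes, called unprefixed. Since each line has a single library, lines are the units, the spread within a group holds genetic and technical differences together, and relatedness among lines was not modelled.

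Library totals ran from 6100624 to 29629212 counts with a median of 13625468, and the medians of the 4 groups lay between 13423204 and 14169020. The correlation of each line with the mean of the 1000 most abundant genes was below 0.6 in 12 lines. Of the markers listed for kernel parts, mn1 and vpp1 of the endosperm were detected in every line at medians of 39.2 and 29.8 FPKM, while the other 12 of 14 endosperm markers had medians below 1 FPKM. All 5 embryo markers had medians below 1 FPKM, and the floral and maternal genes zag2 and ZAG1 had medians of 196 and 197 FPKM. In whole kernels, fewer cells of a type and less RNA per cell cannot be told apart.

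All 9 genes had counts in all 318 lines, and their median levels spanned 3.39 to 25.3 FPKM (fragments per kilobase of gene and per fixed number of mapped fragments, a level scaled to gene length). From high to low the order was zmet2, zmet5, met1, ddm1-b, dng101, mop1, ddm1-a, zmet3 and zmet7. The chromomethylase genes thus stood at the top and both domains rearranged genes at the bottom. Of 20482 genes with a median above 1 FPKM, 77.97% had a lower median than zmet2 and 21.3% a lower median than zmet7. The plot of FPKM by line shows that the ranges of neighbouring genes overlapped throughout.

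**Figure D1:**
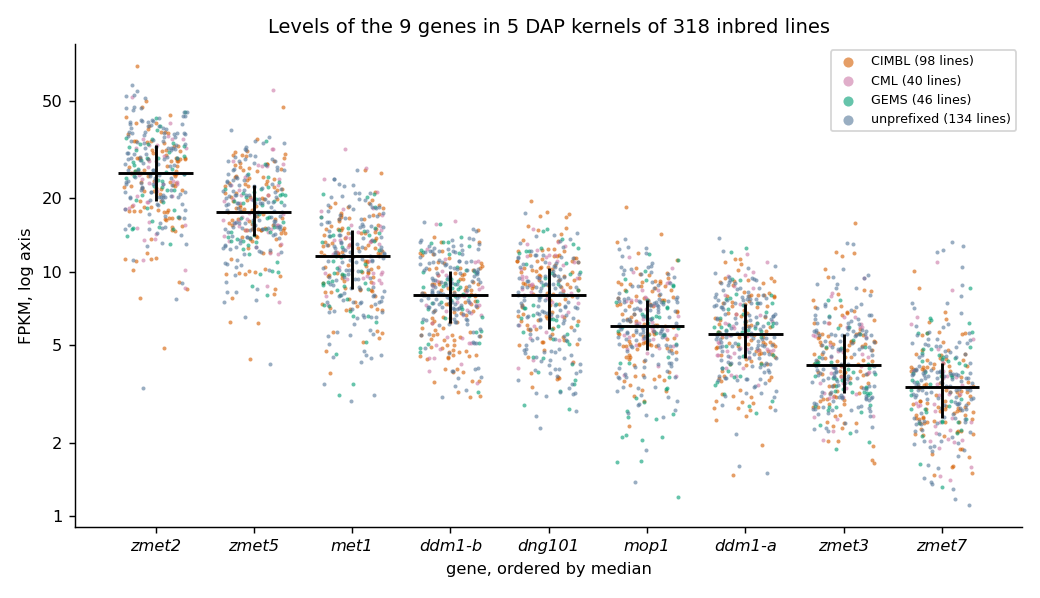
FPKM of the 9 genes (log axis), 1 point per inbred line, colored by name series; the horizontal bar is the median of 318 lines and the upright line spans the quartiles. Medians step down through overlapping clouds, with zmet2 at 25.3 and zmet7 at 3.39 FPKM.

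For most neighbours in this order the difference was smaller than the spread over lines. The zmet2 level exceeded that of zmet5 in 91.8% of lines, with a median log2 ratio of 0.51 against an SD of 0.38. The zmet5 level exceeded that of met1 in 88.7% of lines, with a median log2 ratio of 0.68 against an SD of 0.58. These were the only neighbouring pairs whose median log2 ratio was larger than its SD over lines. The level of ddm1-b was above that of dng101 in 55.03% of lines and that of mop1 above ddm1-a in 58.8%, so these pairs had no fixed order.

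Variation over lines was of the usual size for kernel genes. The coefficient of variation was lowest for ddm1-b at 34.4% and highest for zmet7 at 49.2%, beside a median of 41.9% over the 20482 genes. Counting error at the median count was far smaller, from 2.75% for zmet2 to 8.80% for zmet7.

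The maintenance gene met1 ranged from 2.95 FPKM in line 268 through a median of 11.6 to 31.7 FPKM in CML116. Low lines were more frequent than high ones: 26 lines were under 0.5 times the median and 8 lines exceeded 2 times the median. Line 268 was also the line with the second lowest ddm1-a level and ranked 3 of 318 from the bottom for zmet2. The RefSeq table gives the name met1 to a locus that carries 2 other identifiers of the files, GRMZM2G334041 and GRMZM2G333997, with medians of 5.54 and 1.99 FPKM. Across lines, met1 correlated with GRMZM2G334041 (Pearson r = 0.61, Spearman rho = 0.59) and with GRMZM2G333997 (r = 0.45, rho = 0.46), each with a permutation p of 1e-05 and an adjusted p of 4.54e-05. That p is the smallest that 100000 permutations can give.

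The chromomethylase genes zmet2 and zmet5 were the most abundant of the set. Since reads that map to more than 1 place were dropped, stretches that duplicate genes share go uncounted, and levels within the pairs zmet2 and zmet5, zmet3 and zmet7, and both ddm1 genes are uncertain to that extent. Whether met1 shares such stretches with GRMZM2G334041 or GRMZM2G333997 was not examined. The level of zmet2 ran from 3.34 FPKM in DAN599 through a median of 25.3 to 69.3 FPKM in CIMBL1, a 20.8-fold range that was the widest of the 9 genes. The level of zmet5 ran from 4.18 FPKM, again in DAN599, through a median of 17.5 to 55.2 FPKM in CML191. DAN599 was thus lowest for both, and its correlation with the mean transcriptome was 0.416, the lowest of all 318 lines. CIMBL1, highest for zmet2, ranked 317 of 318 for zmet5, and its correlation with the mean transcriptome was also under the minimum of 0.6, at 0.562.

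The ratio of zmet2 to zmet5 was above 1 in 292 lines and ranged from 0.552 in CML496 to 3.30 in CML290. By name series, its median reached 1.52 for GEMS, 1.33 for CIMBL and 1.19 for CML, against 1.504 for unprefixed lines. All 46 GEMS lines had more zmet2 than zmet5, against 95.5% of unprefixed lines. These ratios between name series are a description and were not tested.

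The domains rearranged genes zmet3 and zmet7 were the least abundant. The level of zmet3 ranged from 1.64 FPKM in CIMBL42 through a median of 4.16 to 15.8 FPKM in CIMBL6. The level of zmet7 ranged from 1.11 FPKM in B11 through a median of 3.39 to 13.2 FPKM in JIAO51. Unlike met1, zmet3 had more lines far above than far below its median: 18 lines exceeded 2 times the median and 8 were under 0.5 times it. The ratio of zmet3 to zmet7 varied more than that of the chromomethylases, from 0.240 to 5.46, and zmet3 was the higher gene in 215 lines.

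Of the ddm1 type remodeler genes, ddm1-a ranged from 1.48 FPKM in CIMBL51 through a median of 5.56 to 13.7 FPKM in JIAO51. The other copy, ddm1-b, ranged from 3.07 FPKM in 335F through a median of 8.04 to 16.2 FPKM in CML191. The second copy was the higher one in 264 lines, with a median ratio of 1.42 and a range from 0.364 in CML290 to 3.59 in CIMBL51. JIAO51 was the highest line for both ddm1-a and zmet7, and CML191 the highest for both ddm1-b and zmet5. CIMBL51, lowest for ddm1-a, was second lowest for zmet2 and zmet5.

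The polymerase gene mop1 ranged from 1.203 FPKM in GEMS5 through a median of 6.003 to 18.4 FPKM in CIMBL6, the line that was also highest for zmet3. Its lower tail was unevenly spread over the name series. Levels under 0.5 times the median of all lines occurred in 12 of 46 GEMS lines (26.1%), 2 of 98 CIMBL lines and 0 of 40 CML lines, against 9 unprefixed lines (6.72%). Within GEMS the lower quartile was 2.96 FPKM beside a median of 5.58, whereas in the other 3 series the lower quartiles lay between 4.72 and 5.38 FPKM. This share was noticed in the data and was not tested.

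The glycosylase gene dng101 ranged from 2.30 FPKM in line 647 through a median of 8.02 to 19.5 FPKM in CIMBL129. It had the largest number of low lines of the set, with 28 lines under 0.5 times the median and 6 above 2 times it. It had at least 141 counts in every line, with a median of 661.

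No line had a replicate library, so the repeatability of these levels was not measured. Counts of lines 177 and ZHENG58, and of CIMBL47 and CML298, differed by more than sampling noise. The difference was smaller than in any other pair of lines, judged over the genes with enough counts in each pair. Between 177 and ZHENG58, zmet2 had 39.9 and 39.3 FPKM, zmet7 had 5.64 and 5.12 FPKM and mop1 had 10.8 and 9.77 FPKM. Between CIMBL47 and CML298, zmet2 had 24.5 and 22.9 FPKM and zmet3 had 4.48 and 3.85 FPKM. These pairs were picked for their small differences over a set of genes that holds all 9, so the closeness of their values is a description only.

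Many of the 9 genes varied together across lines. Over the 36 pairs of genes, Pearson r of log2(FPKM + 1) ranged from -0.09 to 0.78 with a median of 0.20. The correlation was positive with an adjusted p below 0.05 in 26 pairs (permutation test over lines, two-sided, Benjamini-Hochberg over 36 pairs), and no pair was negative past that threshold. The smallest r that passed was 0.12, a level that many genes reach with 318 lines: of 20481 other genes, between 14.7% (zmet3) and 28.9% (mop1) had an r at least as high with a given one of the 9, and between 17.5% (zmet3) and 41.5% (dng101) one at least as far below 0. All points share their libraries and the scaling of each library, and total count correlated with the 9 genes at r between -0.07 and 0.15.

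The tightest group held both chromomethylase genes and ddm1-a. The pair zmet2 and zmet5 had r = 0.78 and Spearman rho = 0.75 (n = 318, permutation p = 1e-05, adjusted p = 2.4e-05), and r = 0.76 without the 2 lines farthest from the zmet2 median. Within name series, r was 0.83 in CIMBL, 0.62 in CML, 0.84 in GEMS and 0.82 in unprefixed lines. For zmet2 and ddm1-a, r was 0.65 (rho = 0.62), and for zmet5 and ddm1-a it was 0.63 (rho = 0.60), with the same p-values. Both ddm1 type genes correlated with each other at r = 0.57 (rho = 0.55). The maintenance gene met1 joined this group more loosely, with r = 0.50 to zmet5, 0.48 to ddm1-a and 0.44 to zmet2. The relation of met1 and zmet2 did not hold within CML lines, where r was -0.01 (n = 40), while it was 0.48 in CIMBL, 0.49 in GEMS and 0.56 in unprefixed lines. Within CML lines, r of met1 was also low with zmet5 (0.17) and ddm1-a (0.24), against 0.47 to 0.58 in the other series. These differences between series were not tested.

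The demethylation gene dng101 had its highest values with met1 and zmet7. The demethylation gene dng101 and the maintenance gene met1 had r = 0.61 and rho = 0.59 (permutation p = 1e-05, adjusted p = 2.4e-05), with 0.58 in CIMBL, 0.65 in CML, 0.64 in GEMS and 0.61 in unprefixed lines. For dng101 and zmet7, r was 0.41 (rho = 0.42), with within-series values from 0.30 in CML to 0.54 in GEMS. Lower values that also passed linked dng101 to ddm1-a (r = 0.28), zmet5 (r = 0.23), ddm1-b (r = 0.22) and mop1 (r = 0.17). They were uneven over the series. With ddm1-a, r ran from 0.04 in CML to 0.46 in unprefixed lines, and with zmet5 from 0.08 in CIMBL to 0.36 in unprefixed lines. With ddm1-b it ran from 0.08 in CIMBL to 0.44 in GEMS, and with mop1 from -0.15 in CML to 0.19 in unprefixed lines. Between dng101 and zmet2 r was 0.05 (permutation p = 0.35, adjusted p = 0.394), from -0.06 in CIMBL to 0.24 in unprefixed lines. Between met1 and zmet7 it was 0.10 (permutation p = 0.063, adjusted p = 0.084). In the map of correlations, dng101 and met1 thus show graded values with the other genes.

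The domains rearranged genes had r near 0 with the chromomethylase genes, and none of these pairs passed the threshold. The r of zmet3 was 0.03 with zmet2, 0.03 with zmet5 and -0.05 with met1, and zmet7 had r = -0.09 with zmet2 and 0.02 with zmet5. With each other, zmet3 and zmet7 had r = 0.12 (rho = 0.13, permutation p = 0.035, adjusted p = 0.0485), and r was -0.02 within CIMBL lines. The highest r of zmet3 with any of the other 8 genes was 0.20, with mop1.

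The polymerase gene mop1 went with the remodelers. Its r was 0.37 with ddm1-a (rho = 0.42) and 0.34 with ddm1-b (rho = 0.39), each with permutation p = 1e-05 and adjusted p = 2.4e-05. With met1 its r was 0.06 (permutation p = 0.29, adjusted p = 0.337). Within the 4 name series, r of mop1 and ddm1-a lay between 0.30 in unprefixed lines and 0.50 in CIMBL lines.

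Removing the first 10 principal components of the transcriptome lowered most of these values. After removal, r was 0.57 for zmet2 and zmet5, 0.44 for met1 and zmet5 and 0.40 for met1 and zmet2. It was 0.13 for met1 and dng101, 0.05 for zmet7 and dng101 and 0.12 for ddm1-a and ddm1-b. The remodeler ddm1-a kept 0.28 with zmet2 and 0.31 with zmet5, and mop1 had 0.07 with ddm1-a and 0.09 with ddm1-b. For dng101 and zmet2, r was higher after removal, at 0.21. Some pairs that had passed fell just below 0: mop1 with zmet2 (-0.06), zmet5 (-0.04), zmet3 (-0.03) and dng101 (-0.06). So did dng101 with ddm1-a (-0.01) and zmet7 with ddm1-b (-0.02). These components held 91.02% of the variance of dng101 and 71.6% of that of met1 over lines, but 15.1% of that of zmet3.

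**Figure D2:**
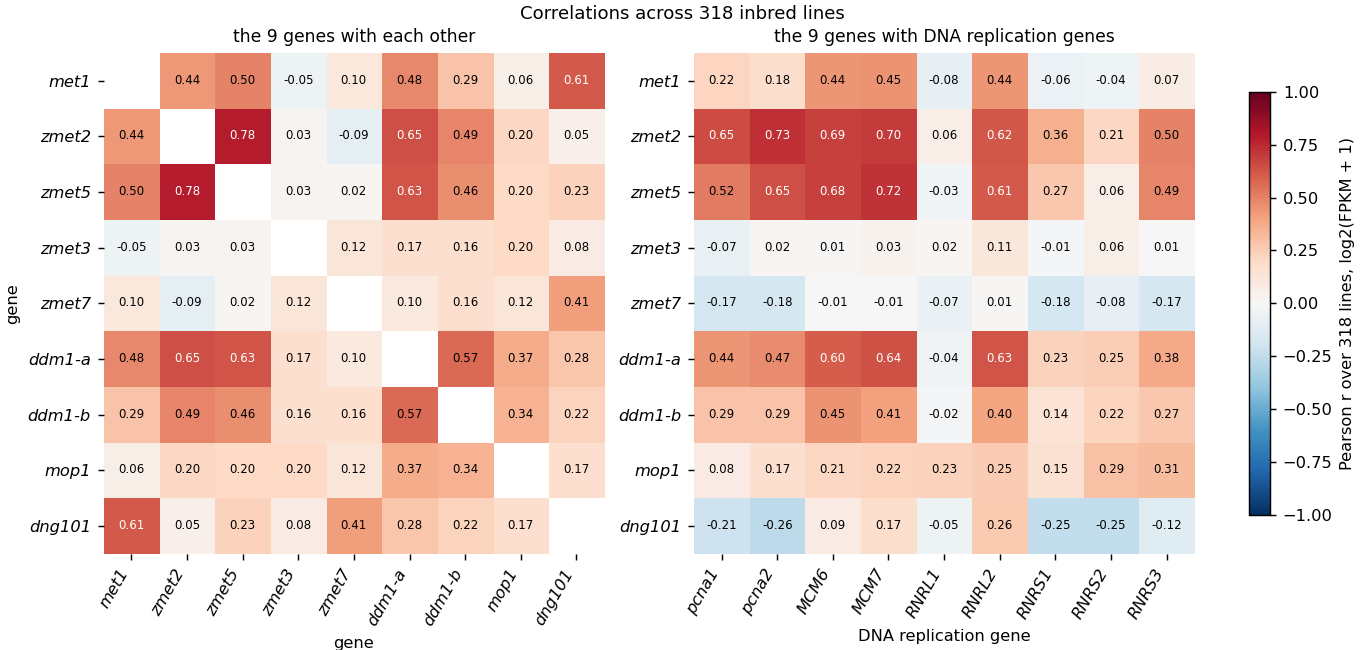
Pearson r across 318 inbred lines of log2(FPKM + 1), for the 9 genes with each other (left) and with 9 DNA replication genes (right); red is positive and blue negative. The block of zmet2, zmet5 and ddm1-a (r from 0.63 to 0.78) also carries the highest values with MCM7 and pcna2, while zmet3 and zmet7 lie between -0.18 and 0.11 with the replication genes.

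Replication genes were examined because maintenance methylation follows the replication fork. With 9 such genes, zmet2 had a median r of 0.62 and was positive past the threshold for 8, and zmet5 had a median r of 0.52 and was positive for 7. Over all genes, 24.3% had an r with zmet2 at or above the smallest that passed among these relations (0.13), 22.99% with zmet5, 26.4% with ddm1-a, 26.4% with ddm1-b and 27.6% with mop1. The highest values were zmet2 with pcna2, the sliding clamp of DNA polymerase (r = 0.73, rho = 0.66), and zmet5 with MCM7, a subunit of the replicative helicase (r = 0.72, rho = 0.70), each with permutation p = 1e-05 and adjusted p = 4.54e-05 over 549 relations. For zmet2 and pcna2, r was 0.79 in CIMBL, 0.70 in CML, 0.56 in GEMS and 0.75 in unprefixed lines, and 0.71 without the 2 lines farthest from the zmet2 median. The remodeler ddm1-a was positive for 8 of 9 with a median r of 0.44, and ddm1-b for 8 of 9 with a median of 0.29. The polymerase gene mop1 was positive for 8 of 9 as well, at a lower median r of 0.22.

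The maintenance gene met1 stood lower, with 5 of 9 replication genes positive and a median r of 0.18. For zmet3, 0 of 9 passed in either direction, and for zmet7 0 were positive and 4 negative, the lowest r being -0.18. The glycosylase gene dng101 was positive for 2 and negative for 4, and its r with pcna2 was -0.26. Over all genes, 26.5% had an r with met1 at or above the smallest that passed. For zmet3, 13.3% were at or above it and 15.9% at or below its negative. These 2 shares were 23.4% and 29.4% for zmet7, and 28.2% and 40.4% for dng101, and they stand beside the counts given here. The large subunit gene RNRL1 of ribonucleotide reductase did not pass with zmet2 (r = 0.06), zmet5 (r = -0.03), ddm1-a (r = -0.04) or ddm1-b (r = -0.02).

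Other genes of the methylation machinery were correlated with dng101 in both directions. Over all genes, 28.2% were at or above the smallest passing r with dng101 and 40.4% at or below its negative. With dng101, r was 0.78 (rho = 0.75) for mbd117, which has a methyl-CpG-binding domain name, 0.62 for SET104, 0.59 for GRMZM2G334041 and 0.57 for rmr7, a subunit of the RNA polymerases of the RNA-directed pathway (permutation p = 1e-05 each). For dng101 and mbd117, r was 0.71 in CIMBL, 0.63 in CML, 0.83 in GEMS and 0.83 in unprefixed lines, and 0.77 without the 2 lines farthest from the dng101 median. For rmr7, r was 0.19 in CML lines. Negative past the threshold were SDG123 (r = -0.45), mbd108 (r = -0.40), rmr2 (r = -0.35), met4 (r = -0.34), mbd101 (GRMZM2G040131, r = -0.21) and mbd111 (r = -0.18). Against zmet2, mbd117 had r = 0.14 and rmr7 had r = 0.21. Of 8 SET domain genes, a class that holds the histone lysine methyltransferases, 8 were positive past the threshold with ddm1-b, 7 each with zmet5, ddm1-a and mop1, and 6 with zmet3. The share of all genes that reached that level was 26.4% for ddm1-b, 22.99% for zmet5, 26.4% for ddm1-a, 27.6% for mop1 and 13.3% for zmet3.

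Markers of kernel tissues were also correlated with dng101. The floral and maternal gene zag2, an AGAMOUS type MADS-box gene, had r = -0.61 with dng101 (rho = -0.62, permutation p = 1e-05), between -0.51 and -0.63 within the 4 name series. All 3 floral and maternal markers were negative past the threshold with dng101, at r from -0.61 to -0.14. Of these, p1 had a median of 0 FPKM. Also negative were 5 of 8 green tissue markers, 1 of 11 endosperm markers and 1 of 4 embryo markers, and 1 endosperm marker, vpp1, was positive (r = 0.30). The share of all genes that were negative at this level with dng101, 40.4%, stands beside these counts. For zmet2, zag2 had r = 0.30, and for met1 -0.28. The study shows zag2 as an example of a gene whose expression differs between haplotypes of the panel. The parts of tissue makeup and of haplotype in these relations were not tested.

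**Figure D3:**
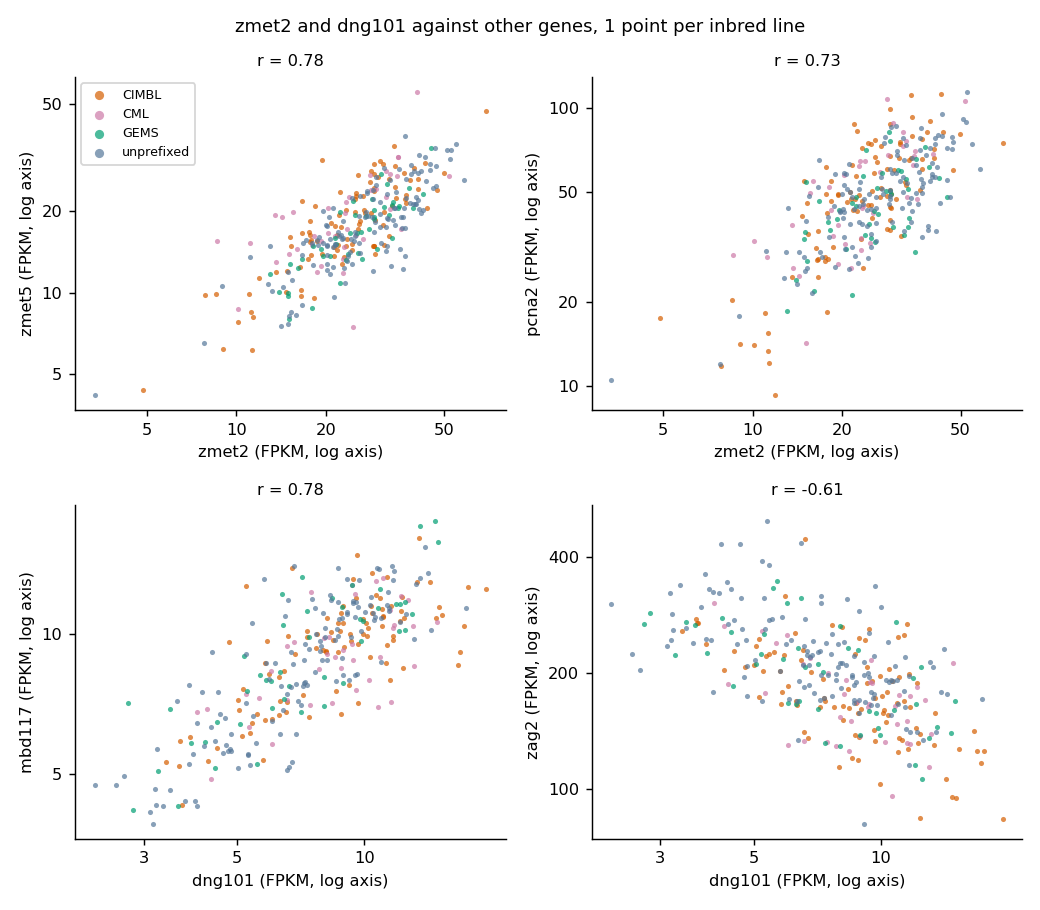
FPKM (log axes) of zmet2 against zmet5 and pcna2, and of dng101 against mbd117 and zag2, 1 point per inbred line, colored by name series. The panels of zmet2 with zmet5, zmet2 with pcna2 and dng101 with mbd117 rise, with r of 0.78, 0.73 and 0.78, and dng101 against zag2 falls (r = -0.61), in each case through all 4 series.

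The genes most like each of the 9 were ranked by r among genes with a median above 1 FPKM, with no test because they were picked for their r. The closest to dng101 were GRMZM2G024612 (r = 0.94), GRMZM2G139977 (r = 0.93) and GRMZM2G347583 (r = 0.92), and 1808 of 20481 other genes had r above 0.5 with it. The closest to zmet2 were GRMZM2G096184 (r = 0.82), zmet5 (r = 0.78) and GRMZM2G030768 (r = 0.77). For zmet5 they were zmet2, the replication origin activator gene GRMZM2G100639 (r = 0.76) and GRMZM2G041125 (r = 0.76). So each chromomethylase gene was among the 3 genes most like the other, out of all genes ranked.

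Near ddm1-a stood GRMZM2G010306 (r = 0.71), kin2 (GRMZM2G136838, r = 0.70) and kin4 (GRMZM2G320689, r = 0.70). The symbols kin2 and kin4 denote kinesins, the motor proteins of microtubules. GRMZM2G010306 was also among the 3 closest to ddm1-b (r = 0.62), beside GRMZM5G855311 (r = 0.63) and GRMZM2G099452 (r = 0.60). For met1 the closest were GRMZM2G011631 (r = 0.70), GRMZM2G448104 (r = 0.70) and GRMZM2G055209 (r = 0.70). For mop1 they were GRMZM2G360698 (r = 0.56), GRMZM2G150754 (r = 0.53) and GRMZM2G161382 (r = 0.52), and for zmet7 GRMZM2G012030 (r = 0.55), GRMZM2G037444 (r = 0.53) and GRMZM2G125342 (r = 0.52). The gene zmet3 had no close partner: its closest genes were sdg107 (GRMZM2G357972, r = 0.39), GRMZM2G178319 (r = 0.35) and GRMZM2G033612 (r = 0.34), and 0 genes had r above 0.5 with it.

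Name series were then compared by edgeR's quasi-likelihood test on the counts, in 1 fit of all 318 lines and with Benjamini-Hochberg adjustment over 26440 genes. Between CIMBL and unprefixed lines, 2 of the 9 genes passed an adjusted p of 0.05, dng101 higher and ddm1-b lower in CIMBL. The background was broad: 10.8% of all genes tested were called higher and 13.5% lower in CIMBL lines, and 1 of 9 in each direction is near that background. The 9 genes had a median absolute log2 fold change of 0.06 in this comparison, beside 0.14 over all genes tested.

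The dng101 level in CIMBL lines had a lowest value of 3.39, a median of 8.86 and a highest of 19.5 FPKM, against 2.30, 7.23 and 17.4 FPKM in unprefixed lines. The ranges overlapped almost fully and the CIMBL quartiles were shifted upward. The log2 fold change was 0.27 ± 0.08 (SE), with an edgeR adjusted p of 0.00377. Beside it, zag2 fell by 0.32 on the log2 scale in CIMBL lines (edgeR adjusted p = 2.3e-06). The other tested floral and maternal gene, ZAG1, had a log2 fold change of 0.06 and was not called (edgeR adjusted p = 0.275). Of 8 tested green tissue markers, 5 were lower, 0 higher. The summed level of the 9 green tissue markers was 3.14 to 54.6 FPKM with a median of 17.5 in CIMBL lines, against 6.72 to 78.7 FPKM with a median of 22.7 in unprefixed lines. That of the 3 floral and maternal markers was 241.4 to 698 FPKM with a median of 383 in CIMBL lines, against 182 to 695 FPKM with a median of 416 in unprefixed lines. Of 5 tested endosperm markers, esr2 was lower in CIMBL (log2 fold change -0.89, adjusted p = 0.0469), at an overall median of 0.0857 FPKM. The part of these tissues in the dng101 difference was not tested.

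The ddm1-b level in CIMBL lines had a lowest value of 3.07, a median of 6.90 and a highest of 14.8 FPKM, against 3.07, 8.41 and 15.9 FPKM in unprefixed lines. The lowest lines of both series were alike, and more CIMBL lines sat low. The log2 fold change was -0.25 ± 0.07 (SE, adjusted p = 0.00391), while that of the other copy ddm1-a was -0.02 ± 0.07 (adjusted p = 0.892). The difference between the 2 copies in this respect was not tested, and their ratio ddm1-b to ddm1-a had a median of 1.26 in CIMBL lines against 1.49 in unprefixed lines. The marker differences given for dng101 stand beside this call too, and their part in it was not tested.

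The level of zmet2 had a lowest value of 4.86, a median of 24.7 and a highest of 69.3 FPKM in CIMBL lines, against 3.34, 27.7 and 58.1 FPKM in unprefixed lines. Its log2 fold change of -0.19 ± 0.08 missed the threshold (adjusted p = 0.0627), and zmet2 was past it under 6 of 9 other settings, with adjusted p between 0.0311 and 0.0494 in those 6. The remaining 6 genes had log2 fold changes between -0.17 (zmet7, adjusted p = 0.14) and 0.06 (mop1, adjusted p = 0.636) in this comparison.

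**Figure D4:**
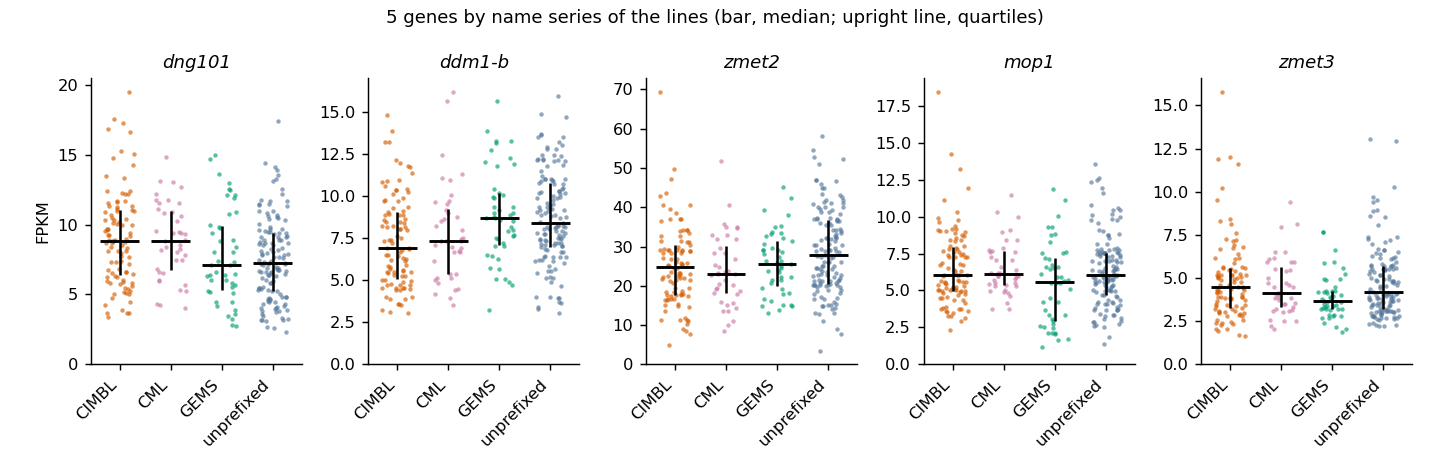
FPKM of dng101, ddm1-b, zmet2, mop1 and zmet3 by name series, 1 point per inbred line (linear axes from 0; bar, median; upright line, quartiles). CIMBL medians of dng101 (8.86) and ddm1-b (6.90) stand apart from the unprefixed medians (7.23 and 8.41), and mop1 has its largest share of low lines in GEMS (12 of 46).

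In CML lines, 0 of the 9 genes were called against unprefixed lines by edgeR, 3 had an unadjusted p below 0.05 (met1, zmet2 and dng101), and DESeq2 called 0. Of all genes tested by edgeR, 28.1% had an unadjusted p below 0.05. Over all genes, 5.62% were called higher and 7.30% lower in CML. Of the calls, 43.5% were higher in CML by edgeR and 33.3% by DESeq2. The dng101 level had a lowest value of 4.02, a median of 8.85 and a highest of 14.9 FPKM in CML lines, with a log2 fold change of 0.25 ± 0.10 (adjusted p = 0.082). It passed under limma on log2(FPKM + 0.1) (adjusted p = 0.0486) and in the lines of the study's mapping table (adjusted p = 0.0403). Beside it, zag2 had a log2 fold change of -0.38 in CML lines (edgeR adjusted p = 0.000156) and ZAG1 of 0.05 (edgeR adjusted p = 0.604). Of 8 tested green tissue markers, lhcb4 was lower (-0.94, edgeR adjusted p = 0.0257) and 7 were not called. Of 5 tested endosperm markers, fie1 was higher (0.67, edgeR adjusted p = 0.037) and 4 were not called. The part of these tissues in the CML values was not tested. The log2 fold changes of met1 and zmet2 were 0.23 ± 0.11 (adjusted p = 0.138) and -0.25 ± 0.11 (adjusted p = 0.105). No CML line was under 0.5 times the median of all lines for met1, mop1, ddm1-a or dng101.

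In GEMS lines, edgeR also called 0 of 9 against unprefixed lines, with 2 at an unadjusted p below 0.05 (zmet3 and mop1) and 0 called by DESeq2. Such an unadjusted p was reached by 18.2% of all genes tested by edgeR. The background of calls was 2.06% higher and 2.18% lower in GEMS. Higher calls made up 48.6% of all calls by edgeR, 60.8% by limma on log2(FPKM + 1) and 58.3% on log2(FPKM + 0.1). The zmet3 level had a lowest value of 1.88, a median of 3.65 and a highest of 7.66 FPKM in GEMS lines, against 2.22, 4.18 and 13.05 FPKM in unprefixed lines. Its log2 fold change was -0.29 ± 0.10 with an adjusted p of 0.0787, and zmet3 was past the threshold without the lines of low correlation with the mean transcriptome (adjusted p = 0.0424) and in the bias-adjusted form of the edgeR test (adjusted p = 0.0467). The mop1 level had a lowest value of 1.203, a median of 5.58 and a highest of 11.8 FPKM in GEMS lines, against 1.38, 6.02 and 13.6 FPKM in unprefixed lines. Its log2 fold change was -0.22 ± 0.10 (adjusted p = 0.212), and limma on log2(FPKM + 0.1) gave -0.31 with an adjusted p of 0.0379.

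Between CML and CIMBL lines directly, edgeR called 0 of 9 genes, 0 had an unadjusted p below 0.05, and DESeq2 and limma called 0. An unadjusted p below 0.05 was found by edgeR for 6.99% of all genes tested. Calls were rare here over all genes too, with 0.144% higher and 0.193% lower in CML. Higher calls made up 42.7% of all calls by edgeR and 30.3% by DESeq2. The largest of the 9 log2 fold changes was 0.19 ± 0.11 for met1 (adjusted p = 0.789), with a 95% interval from -0.02 to 0.41. For dng101 the interval was -0.23 to 0.19 and for zmet2 -0.27 to 0.16. The 3 comparisons with unprefixed lines share those unprefixed lines and are not independent of each other.

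**Figure D5:**
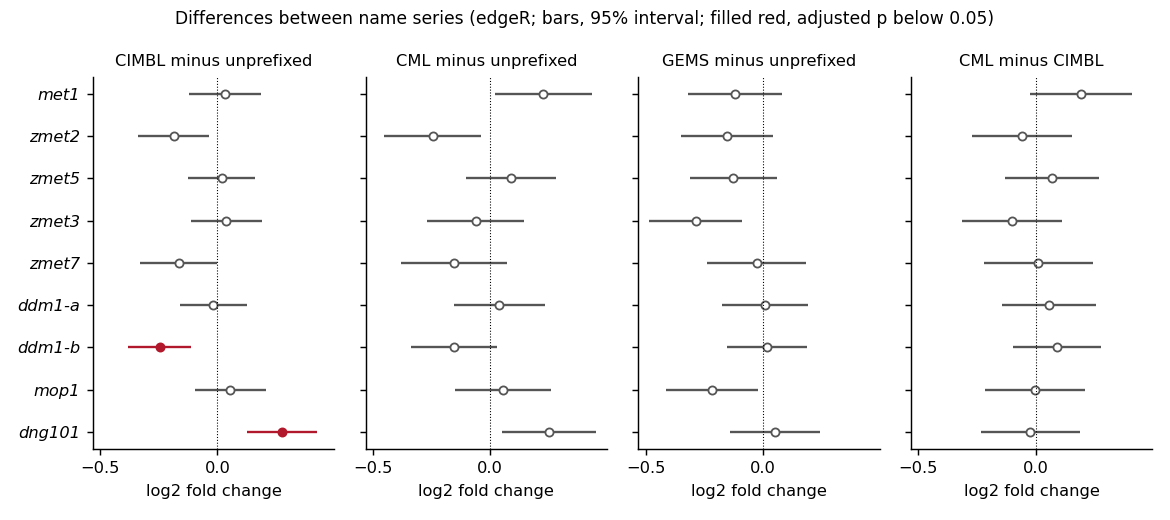
log2 fold changes of the 9 genes in 4 comparisons of name series (edgeR, 318 lines; point, estimate; bar, 95% interval; filled red, adjusted p below 0.05). The intervals of dng101 and ddm1-b in CIMBL minus unprefixed are the filled ones, and every estimate lies between -0.29 and 0.27.

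Other genes of the pathway were compared between the series in short lists. In CIMBL against unprefixed lines, 0 of 4 further DNA methyltransferase genes, 0 of 3 genes of the RNA-directed pathway and 0 of 9 tested methyl-CpG-binding domain genes passed. Among the 4, GRMZM2G334041 and GRMZM2G333997 belong to a single RefSeq locus. Over all genes tested, 10.8% were called higher and 13.5% lower, so 0 calls in lists this short do not set them apart from that background. Of 8 SET domain genes, sdg113 was higher (log2 fold change 0.15, adjusted p = 0.0208), and SDG123 (-0.15, adjusted p = 0.0232) and SET102 (-0.09, adjusted p = 0.0313) were lower in CIMBL. Of 9 replication genes, RNRL1 was higher in CIMBL (0.37, adjusted p = 0.0162). In the other 3 comparisons, 0 genes of these 5 lists passed by edgeR. Between 0.144% and 7.30% of all genes tested were called in a given direction there.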

How the data were processed

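Kernels of 318 inbred lines were sampled at 5 DAP, and seeds of 3 field blocks were mixed before RNA extraction. The authors mapped paired reads of 125 bp to the B73 AGPv3 reference with TopHat2, kept uniquely mapped reads and deposited read counts per annotated gene. Reads shared by near-identical copies are therefore dropped, reads of divergent lines can map less well, and strand was not used. The deposited FPKM were made by the authors with DESeq2; they equal counts divided by median-of-ratios size factors (17562 genes without a 0) times a factor per gene, with a largest relative difference of 1.6e-14. Versions are not given in the sources used here.

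Counts were tested with edgeR 4.0.16 (TMM, filterByExpr, quasi-likelihood with trended dispersion) under R 4.3.3, with limma 3.58.1 and DESeq2 1.42.0 as alternatives. On counts simulated for CIMBL minus unprefixed over 26440 genes, edgeR recovered 34%, 74%, 90% and 96% of genes changed 1.2-, 1.5-, 2- and 3-fold, and 25 of 172 calls were unchanged genes, more than the threshold implies. Correlations used log2(FPKM + 1) with 100000 permutations. P-values set a difference or a correlation against the spread between lines, which may be technical.

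Named genes were all 9 members, the 3 genes of highest r with each, lines at the extremes, and list genes called with the most extreme fold change. List genes and markers named for their correlations, and the counts of low and high lines, were chosen after their values were seen. The members and lists were chosen with earlier results of these data known. Lists were matched by symbol in the RefSeq table, which holds no descriptions (19059 of 39625 identifiers matched); coordinates and sequences were not used here, since the builds differ. No 2 lines agreed within sampling noise.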

Additional observations from a re-analysis of the deposited data

How the results depend on the processing

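The calls of dng101 and ddm1-b in CIMBL against unprefixed lines kept their direction and stayed past the threshold under all 9 alternatives. Median levels of the 9 genes moved by less than the SD over lines with other library scalings and in the lines of the mapping table. The number of genes called moved by over 1.5 times in these cases. With no filter on low counts it was 5711 against 3417 for CML minus unprefixed, 2888 against 1121 for GEMS minus unprefixed and 1001 against 89 for CML minus CIMBL. In the lines of the mapping table it was 1686 for GEMS minus unprefixed. With bias-adjusted quasi-likelihood, an alternative chosen after seeing the data, it was 2320 for GEMS minus unprefixed and 229 for CML minus CIMBL. With limma on log2(FPKM + 1) or log2(FPKM + 0.1) it was 1 for CML minus CIMBL. Uncalled log2 fold changes near 0 turned sign: for GEMS minus unprefixed zmet7 gave 0.0266 and 0.0425 under the 2 limma fits, and ddm1-a gave -0.0344 and ddm1-b -0.0062 without lines of low consistency. For CML minus CIMBL, zmet7 gave -0.0258 and -0.0406 and mop1 0.0299 and 0.0403 under the limma fits, dng101 gave 0.0025 with the smaller pseudocount, and mop1 gave 0.0051 without lines of low consistency and 0.0046 without 1 line of each of the 2 closest pairs, also chosen after seeing the data. The causes were not tested. Of 36 pairs of genes, 26 were positively correlated at p below 0.05, against 13 with 10 principal components removed and 11 within CML, which has 40 lines. Within CIMBL r of zmet3 and zmet7 was -0.0241, and within CML that of met1 and zmet2 was -0.0121. No pair of lines agreed within sampling noise, so the planned removal of such lines had nothing to remove. No paired analysis was possible because each line has 1 library and the replicate numbers only follow the order of accession. Depth limits zmet7 most, with 33 counts in its lowest line.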
